A study of Homo sapiens with 6 samples.

Results

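Transcript levels in C4-2 cells treated with GSK126 were compared with those in cells treated with vehicle. C4-2 is an established human prostate cancer line derived from LNCaP. Genes entered the comparison when they stood at 1 FPKM or more in either library, and 12626 of the 26757 gene lines used did so. FPKM is the number of sequenced fragments scaled to transcript length and to library size. Each gene was described by the log2 ratio of FPKM + 1 with GSK126 over FPKM + 1 with vehicle, which shrinks the differences of genes with low values. A gene was called at a difference of 2-fold or more.

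The study sequenced polyadenylated RNA from 6 libraries of C4-2 cells at passages 10 to 15, grown in RPMI-1640 with fetal bovine serum. The cells received vehicle, GSK126, astemizole, a lentivirus with a scramble shRNA, or a lentivirus with 1 of 2 EZH2 hairpins. Vehicle was the control for GSK126 and for astemizole, and the scramble shRNA was the control for the knockdown. The sources used here do not give the dose or duration of GSK126 treatment. With 1 library per condition no p-value or standard deviation can be given, and no difference below has a replicate check. The library with the scramble shRNA was therefore set beside vehicle as a further control, and is called the shRNA control. The cells of this control received a virus and the vehicle cells did not. Astemizole and the EZH2 knockdown are given as further columns, the knockdown as 1 column in the authors' table that names no hairpin.

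EZH2 is the catalytic subunit of Polycomb repressive complex 2 (PRC2). The complex methylates lysine 27 of histone H3, a mark found at silent genes that direct development, signalling and cell identity. EZH2 needs its partners EED and SUZ12 for activity. GSK126 competes with the methyl donor in the catalytic site of EZH2, so it blocks methylation without removing the protein. In prostate cancer EZH2 is often abundant and has been tied to proliferation and to the silencing of luminal and signalling genes.

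The libraries carried the markers of luminal prostate cells. KLK3, which encodes prostate-specific antigen, stood at 2675 FPKM with vehicle, 3112 with GSK126 and 2796 in the shRNA control. The keratin gene KRT8 stood at 269, 293 and 285 FPKM, in the same order. Read totals are not in the table, so absolute depth is unknown. Judged from the steps between low values, the FPKM of 1 read with GSK126 was 0.949 times that with vehicle, and in the shRNA control it was 0.856 times.

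Against vehicle, 136 genes (1.08%) were higher by 2-fold or more in the GSK126 library and 123 (0.974%) were lower. Against the shRNA control 197 (1.56%) were higher and 46 (0.364%) lower. Of the genes called against vehicle, 94 (0.744% of all measured) were at least 2-fold higher than both controls and 19 (0.15%) were lower than both. Thus 69.1% of the higher calls but 15.4% of the lower calls were also past 2-fold with the other control. Of the 123 lower genes, 17 had a ratio above 0 against the shRNA control, and 4 of the 136 higher genes had one below 0. The controls themselves differed, with 17 genes past 2-fold up and 110 past it down in the shRNA control relative to vehicle. The share of higher genes among all calls was 52.5% with vehicle as the control and 81.1% with the shRNA control. It was 79.8% after rescaling to equal totals (TPM), which moved the median of all genes from -0.04 to 0.15. Just inside the 2-fold limit, within 0.05 on the log2 scale, lay 11 higher and 32 lower genes, and just outside it 13 and 42.

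**Figure D1:**
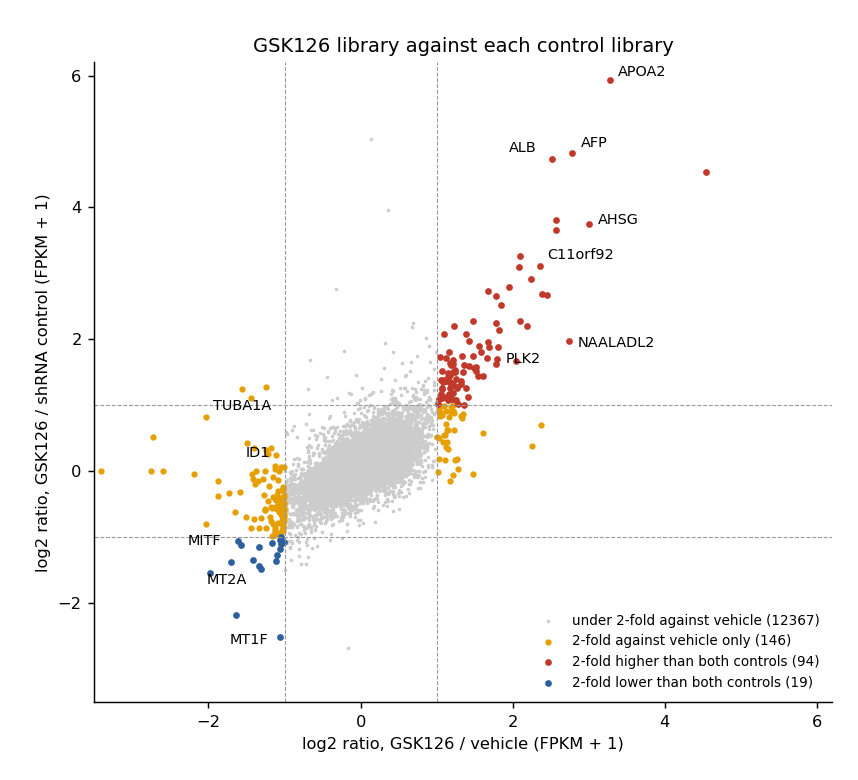
Log2 ratio of the GSK126 library to vehicle (x axis) and to the shRNA control (y axis), FPKM + 1, 1 point per gene, with dashed lines at 2-fold. The 94 genes higher than both controls are in the upper right, the 19 lower than both in the lower left, and 3 genes lie outside the plotted range.

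The lower calls against vehicle were mostly short transcripts. Measured genes with an annotated length were split into 5 groups by their longest transcript, 2354 genes each. From the shortest to the longest group, with median lengths from 1545 to 7509.5 bases, the median log2 ratio to vehicle went from -0.22 to 0.13. Against the shRNA control the medians of all 5 groups lay between 0.03 and 0.05, and the shRNA control had -0.28 to 0.09 against vehicle. The shortest group held 48 of the lower calls and the longest held 1, while higher calls numbered 37 and 28. Level went with this too: genes at 100 FPKM or more had a median of -0.29 against vehicle and -0.00 against the shRNA control. When each ratio was centred within bins of length, 148 genes were higher and 39 lower (79.1% higher), of which 114 and 34 were among the calls above. The cause of the length trend was not tested.

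**Figure D2:**
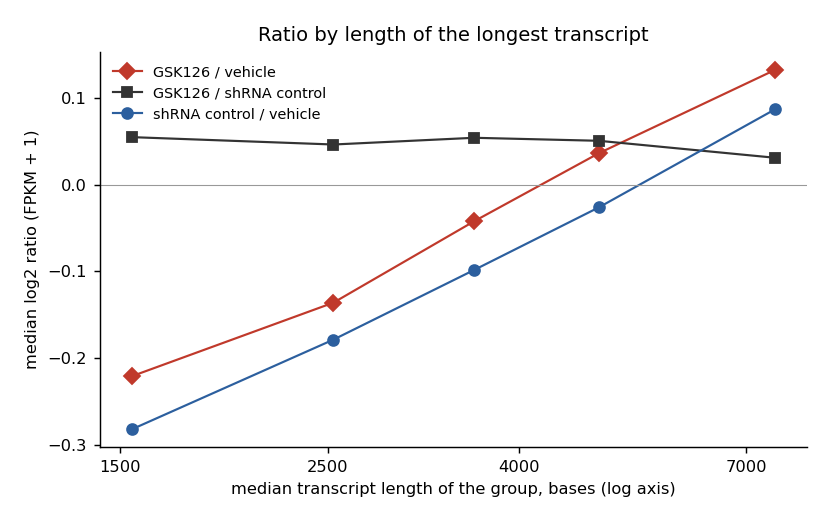
Median log2 ratio (FPKM + 1) of genes in 5 groups of transcript length, against the median length of the group in bases on a log axis. The ratio of GSK126 to vehicle runs from -0.22 to 0.13 and that of the shRNA control to vehicle from -0.28 to 0.09, while GSK126 to the shRNA control is nearly level.

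PRC2 genes stayed short of the 2-fold call at the RNA level. EZH2 had 17.5 FPKM in the GSK126 library, 26.5 with vehicle and 24.6 in the shRNA control, with log2 ratios of -0.58 and -0.47. It had 9.48 FPKM with astemizole and 3.35 in the knockdown. This RNA level does not measure the activity that GSK126 blocks. None of the 6 core or the 7 accessory genes was past 2-fold against either control in the ratio of FPKM + 1. Of the accessory factors that steer the complex to chromatin, PHF19 had 6.43 FPKM with vehicle, 3.75 in the shRNA control, 2.91 with GSK126 and 0.998 in the knockdown. JARID2 had 5.95, 6.43, 10.7 and 14.9 FPKM in the same order, above both controls with log2 ratios of 0.75 and 0.65. The plain FPKM of PHF19 with GSK126 was 0.453 times that with vehicle, and adding 1 FPKM brought its log2 ratio to -0.93.

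The highest genes outside the lists of other tissues were a mixed group. C11orf92, a non-coding gene now named COLCA1, stood at 8.21 FPKM with vehicle, 4.46 in the shRNA control, 46.2 with GSK126, 19.2 with astemizole and 20.2 in the knockdown. It was higher in all 3 treated columns than in either control, most with GSK126 (log2 ratios 2.36 and 3.11). SERPINI1, which encodes the neuronal protease inhibitor neuroserpin, was at 10.6 and 9.25 FPKM in the controls, 48.8 with GSK126, 23.0 with astemizole and 14.1 in the knockdown. NAALADL2, a gene of the glutamate carboxypeptidase family, was at 1.497 FPKM with vehicle and 3.26 in the shRNA control, 15.7 with GSK126, 3.21 with astemizole and 14.3 in the knockdown. GSK126 and knockdown thus stood together above the other 3 columns for NAALADL2. PLK2, a polo-like kinase gene, was at 21.3 and 20.02 FPKM in the controls, 76.9 with GSK126, 11.98 with astemizole and 21.5 in the knockdown. The knockdown level of PLK2 was close to that of the controls, unlike the GSK126 level (log2 ratios 1.81 and 1.89).

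Several of the other leading genes are known from prostate tissue and prostate cancer. AMACR, a racemase of fatty acid oxidation used as a prostate cancer marker, was at 44.3 FPKM with vehicle, 36.6 in the shRNA control, 125 with GSK126, 87.4 with astemizole and 72.9 in the knockdown. All 3 treated columns exceeded both controls, and the log2 ratios with GSK126 were 1.47 and 1.74. ACPP, which encodes prostatic acid phosphatase, was at 4.09 and 4.40 FPKM in the controls, 16.6 with GSK126, 16.9 with astemizole and 20.7 in the knockdown. TMEFF2, a transmembrane protein gene expressed in prostate and brain, was at 7.71 and 3.74 FPKM in the controls, 29.001 with GSK126, 2.82 with astemizole and 12.9 in the knockdown. Astemizole thus lay below both controls for TMEFF2 and level with GSK126 for ACPP. ALDH1A3, a retinoic acid synthesis enzyme, was at 13.9 and 15.7 FPKM in the controls and 44.3 with GSK126 (1.60 and 1.44). BCHE (butyrylcholinesterase), BACE2 (a beta-secretase), OLFM2, PKIB (a protein kinase A inhibitor), FAM198B, GRIN3A (a glutamate receptor subunit), HS3ST1 (a heparan sulfate sulfotransferase) and TSC22D1 completed the leading set with RCAN3AS, GPNMB, WNT5A and SESN3. RCAN3AS, antisense to RCAN3, had 0.52 FPKM with vehicle, 0.96 in the shRNA control and 5.26 with GSK126. Reads of overlapping antisense genes may not be separable, because the sources used here do not give the strand.

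**Figure D3:**
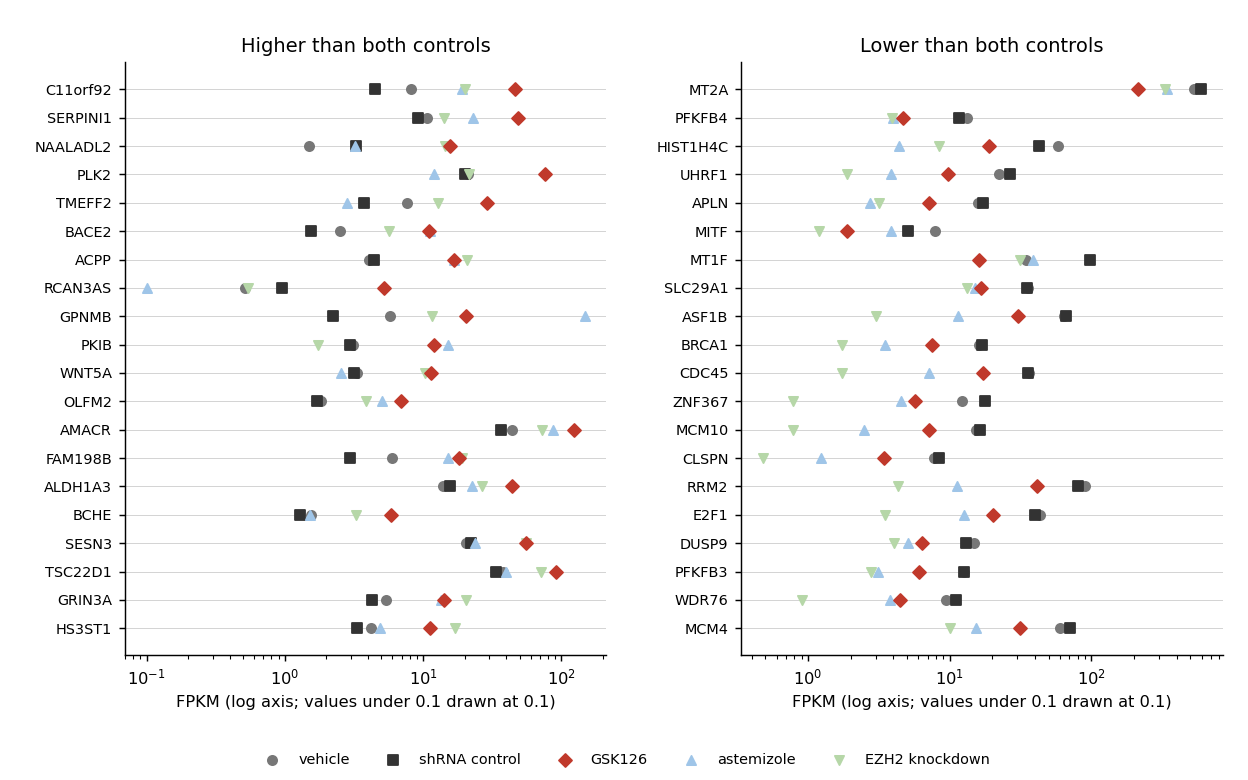
FPKM on a log axis in the 5 columns for the 20 highest and 20 lowest genes against both controls. The GSK126 diamonds lie to the right of both control symbols on the left panel (C11orf92 at 46.2 against 8.21 and 4.46) and to their left on the right panel (MT2A at 212 against 526 and 595).

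Of the genes reported as silenced by EZH2, 29 were in the table and 15 were measured. Of these 3 were at least 2-fold higher than vehicle and 0 lower, where 1.08% of all measured genes were higher and 0.974% lower. Their median log2 ratios were 0.09 against vehicle and 0.20 against the shRNA control, and over all measured genes -0.04 and 0.05. Here and for the lists that follow, counts and medians cover the measured members, and a member can have been measured through the GSK126 column alone. For scale, 36.4% of all measured genes lay above 0 against both controls and 32.9% below 0 against both. The 3 were TMEFF2, WNT5A and BMPR1B. WNT5A, a ligand of non-canonical WNT signalling, was at 3.33 and 3.15 FPKM in the controls, 11.4 with GSK126, 2.57 with astemizole and 10.3 in the knockdown. As with NAALADL2, GSK126 and knockdown were high and the other 3 columns low. BMPR1B, a receptor for bone morphogenetic proteins, was at 2.63 FPKM with vehicle, 4.08 in the shRNA control and 8.05 with GSK126, and so was past 2-fold against vehicle only.

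Few genes of secreted ligands and their receptors were past 2-fold against vehicle. Over all measured genes 1.08% were higher and 0.974% lower. Of 22 measured genes of WNT ligands, receptors and antagonists, 1 was at least 2-fold higher (WNT5A) and 0 lower, with medians of 0.18 and 0.09 against vehicle and shRNA control. Of 32 BMP, TGF-beta and activin genes, 2 were higher (BMPR1B and the ligand gene BMP6) and 1 was lower. BMP6 was at 4.51 and 5.42 FPKM in the controls, 11.6 with GSK126, 4.31 with astemizole and 4.05 in the knockdown, so that only GSK126 stood apart among the 5 columns. The lower gene was ID1, a target of BMP signalling, at 10.98 FPKM with vehicle, 4.49 with GSK126 and 4.22 in the shRNA control, which rests on the vehicle column. With astemizole ID1 was at 53.5 FPKM and in the knockdown at 36.9, above both controls. Of 16 receptor tyrosine kinase genes and adaptors, the receptor gene FGFR2 was the 1 past 2-fold, at 0.69 and 0.63 FPKM in the controls and 3.20 with GSK126. CXCL12, a chemokine gene named after its values were seen, was at 19.3 and 18.8 FPKM in the controls, 41.7 with GSK126, 7.53 with astemizole and 5.57 in the knockdown. Its other treated columns thus lay on the opposite side of the controls.

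Axon guidance and neural genes that were measured lay mostly above 0. Of 61 axon guidance genes 34 were measured, 2 were past 2-fold up (1.08% of all measured genes) and 0 down, and 24 lay above 0 against both controls (36.4% of all measured genes). Their medians were 0.24 and 0.27, and over all 61 genes 0.14 and 0.15. NRP1, a co-receptor for semaphorins and vascular endothelial growth factor, was at 21.9 and 25.5 FPKM in the controls, 52.0 with GSK126, 34.2 with astemizole and 50.02 in the knockdown. ROBO1, the receptor for SLIT ligands, was at 3.74 and 3.73 FPKM in the controls, 9.65 with GSK126, 2.29 with astemizole and 4.63 in the knockdown. GSK126 was the highest column for both genes. Of 52 neural and synaptic genes 19 were measured, 3 were past 2-fold up and 0 down, and 14 lay above 0 against both controls. Their medians were 0.45 and 0.36, but over all 52 genes, most of them near 0 in every column, 0.01 and 0.03. The 3 were SERPINI1, the synaptotagmin gene SYT4 and MAP2, which encodes a dendritic microtubule protein. SYT4 was at 15.5 and 12.03 FPKM in the controls and 35.5 with GSK126, and MAP2 had 4.79 and 3.25 FPKM in the controls and 11.1 with GSK126.

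Of 45 extracellular matrix genes 28 were measured, of which 2 were past 2-fold up (1.08% of all measured genes) and 0 down (0.974%). Their medians were 0.25 and 0.21 (0.14 and 0.16 over all 45). THBS1, which encodes the matrix glycoprotein thrombospondin, was at 19.3 FPKM with vehicle, 9.31 in the shRNA control, 46.3 with GSK126, 19.1 with astemizole and 51.8 in the knockdown. COL12A1, a fibril-associated collagen gene, was at 12.9 FPKM with vehicle but 28.4 in the shRNA control and 32.6 with GSK126, and its ratio was 0.19 against the shRNA control. These lists hold long transcripts, with median lengths from 4782 bases for axon guidance to 6540 for matrix genes. After centring by length their medians were 0.20 for axon guidance, 0.40 for neural and 0.26 for matrix genes.

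Some sestrin genes and a subunit gene of phosphoinositide 3-kinase were also among the higher genes. The list of 32 sestrin, FOXO target and phosphoinositide 3-kinase genes was drawn up after SESN3 and PIK3R1 had been seen among the calls, so its counts describe and do not support. In it 5 genes were past 2-fold above vehicle and 0 below, 26 lay above 0 against both controls, and the medians were 0.35 and 0.44. The 4 members below 0 against vehicle included SESN2 (-0.23) and the subunit genes PIK3R2 (-0.07) and PIK3CB (-0.01), named after their values were seen. SESN3 and SESN1, stress-induced inhibitors of the growth kinase mTORC1, were at 20.6 and 20.2 FPKM with vehicle, 22.4 and 21.4 in the shRNA control and 55.3 and 46.7 with GSK126. They were at 23.8 and 37.3 FPKM with astemizole and 55.9 and 100.2 in the knockdown. For both genes GSK126 and knockdown stood above either control. PIK3R1, a regulatory subunit of phosphoinositide 3-kinase, was at 20.8 and 21.2 FPKM in the controls, 48.0 with GSK126, 25.8 with astemizole and 47.6 in the knockdown. TXNIP, an inhibitor of thioredoxin and glucose uptake, was at 42.9 FPKM with vehicle, 67.4 in the shRNA control and 91.6 with GSK126, past 2-fold against vehicle only. KLHL24, the other called member, was at 2.93 and 3.41 FPKM in the controls and 8.37 with GSK126. Of the 31 p53 targets, 2 were at least 2-fold higher than vehicle, SESN1 and PLK2, and 0 lower. Over all measured genes 1.08% were higher and 0.974% lower. The p53 list median was -0.13 against vehicle, 0.16 against the shRNA control and 0.04 after rescaling to TPM.

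Most lysosomal genes had ratios slightly above 0. Of 44 measured lysosomal hydrolase genes, 2 were past 2-fold above vehicle (1.08% of all measured genes) and 0 below, and the medians were 0.21 and 0.22. In all 33 of them lay above 0 against both controls, against 36.4% of all measured genes. TPP1, a lysosomal peptidase gene, was at 11.99 FPKM with vehicle, 16.2 in the shRNA control, 27.3 with GSK126, 47.6 with astemizole and 35.99 in the knockdown. PLBD2 was at 3.73 FPKM with vehicle but 10.2 in the shRNA control and 10.5 with GSK126, so its call rests on the vehicle column. NEU1, the lysosomal sialidase gene, named here after its values were seen, was at 23.3 and 19.4 FPKM in the controls, 40.4 with GSK126, 105 with astemizole and 34.1 in the knockdown. Astemizole, not GSK126, was the highest column for TPP1 and NEU1. The 28 lysosomal membrane and V-ATPase genes had medians of 0.18 and 0.24 with no member past 2-fold.

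The 250 bases before and 50 bases after the RefSeq start of NEU1 (GRCh38.p14, chr6:31862772-31863071, minus strand) are shown because they hold the CLEAR motif TCACGTG, the letters bound by the lysosomal regulator TFEB, in capitals.
NEU1: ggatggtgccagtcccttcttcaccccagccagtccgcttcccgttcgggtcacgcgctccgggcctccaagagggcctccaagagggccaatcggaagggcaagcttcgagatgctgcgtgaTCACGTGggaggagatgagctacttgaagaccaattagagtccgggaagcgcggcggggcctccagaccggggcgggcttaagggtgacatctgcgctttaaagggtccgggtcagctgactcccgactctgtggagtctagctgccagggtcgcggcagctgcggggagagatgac
Of the measured lysosomal hydrolase genes 29 had a promoter of this length in the RefSeq table, and 8 of them (27.6%) held TCACGTG on either strand. Among 9600 promoters of measured genes 6.24% did. A match describes the letters only.

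The MiT family of transcription factors that act on such motifs did not move as 1 group. MITF was at 7.85 FPKM with vehicle, 5.04 in the shRNA control, 1.90 with GSK126, 3.86 with astemizole and 1.19 in the knockdown. MITF was lowest in the knockdown and next lowest with GSK126, and all 3 treated columns lay below both controls. Among members named after their values were seen, TFEB was at 9.96, 6.404 and 6.53 FPKM with vehicle, shRNA control and GSK126, and TFE3 was at 14.6, 12.02 and 14.9 FPKM. GPNMB, a melanosomal and lysosomal glycoprotein gene, was at 5.75 and 2.24 FPKM in the controls, 20.5 with GSK126, 148 with astemizole and 11.7 in the knockdown. SLC45A2, a melanosomal transporter gene and neighbour of AMACR, was at 0.91 and 1.34 FPKM in the controls and 4.10 with GSK126. FLCN, a regulator of TFEB and TFE3 at the lysosome that was named after its values were seen, was at 9.57 and 9.54 FPKM in the controls and 16.3 with GSK126. Of the 14 measured genes of this list, 2 were at least 2-fold higher (1.08% of all measured genes) and 1 lower (0.974%). Above 0 against both controls lay 10 of the 14.

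Cell cycle genes lay below both controls. All 23 measured S phase genes lay below 0 against both, as did 32.9% of all measured genes, with medians of -0.94 and -0.81. Of the 23, 10 were at least 2-fold lower than vehicle (0.974% of all measured genes) and 4 lower than the shRNA control (0.364%). UHRF1, which links replication to DNA methylation, was at 22.2 and 26.5 FPKM in the controls, 9.71 with GSK126, 3.86 with astemizole and 1.90 in the knockdown. RRM2, a subunit of ribonucleotide reductase, was at 90.8 and 80.9 FPKM in the controls, 41.1 with GSK126, 11.3 with astemizole and 4.30 in the knockdown. For UHRF1 and RRM2 the GSK126 level lay between the controls and the other treatments. E2F1, the transcription factor of the G1 to S transition, was at 43.5 and 40.2 FPKM in the controls, 20.2 with GSK126, 12.6 with astemizole and 3.51 in the knockdown. The histone chaperone gene ASF1B, the replicative helicase genes CDC45, MCM4 and MCM10, the checkpoint gene CLSPN and the repair gene BRCA1 were also among the 20 lowest genes against both controls. In bulk RNA, fewer cells in a cell cycle phase and less RNA per cell cannot be told apart. All 24 G2 and M phase genes also lay below 0 against both controls, but the difference depended more on the control, with medians of -0.80 against vehicle and -0.39 against the shRNA control, with 3 and 0 at least 2-fold lower. PTTG1 (securin), named after its values were seen, was at 303 FPKM with vehicle, 140 in the shRNA control and 146 with GSK126.

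The promoter of E2F1 (chr20:33686336-33686635, minus strand, GRCh38.p14) is shown because S phase promoters often hold E2F motifs, here in capitals (TTTCGCGC, TTTGGCGC, TTTCCCGC or TTTGCCGC on either strand).
E2F1: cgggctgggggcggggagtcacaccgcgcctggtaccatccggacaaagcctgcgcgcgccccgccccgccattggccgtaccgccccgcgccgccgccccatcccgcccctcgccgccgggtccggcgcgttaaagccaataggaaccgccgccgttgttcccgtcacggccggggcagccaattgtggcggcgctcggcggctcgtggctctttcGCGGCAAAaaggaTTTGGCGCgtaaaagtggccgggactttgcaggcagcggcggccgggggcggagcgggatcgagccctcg
It held 2 such matches, 1 on each strand. Of the 20 S phase promoters found, 13 (65.0%) held a match, against 5.57% of the 9600 promoters of measured genes. Of 67 promoters of genes at least 2-fold lower than vehicle 16.4% held one.

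Most hypoxia-inducible and glycolytic genes had ratios below 0 against both controls, few of them past 2-fold. The list of targets of the hypoxia-inducible factors (HIF) had 32 measured genes. Of these 2 were at least 2-fold lower than vehicle (0.974% of all measured genes) and 3 lower than the shRNA control (0.364%). In the list 0 were higher, and 27 lay below 0 against both (32.9% of all measured genes). The medians were -0.41 and -0.42, and -0.42 after centring by length. PFKFB4, which makes the activator of phosphofructokinase, was at 13.3 and 11.6 FPKM in the controls, 4.66 with GSK126, 3.95 with astemizole and 3.93 in the knockdown. Its relative PFKFB3 was at 12.7 and 12.5 FPKM in the controls, 6.11 with GSK126, 3.14 with astemizole and 2.77 in the knockdown. The treated columns lay below both controls for these genes. HILPDA, a lipid droplet protein gene, was at 46.9 and 30.7 FPKM in the controls and 18.3 with GSK126. BNIP3, a mitophagy receptor gene named after its values were seen, was at 400 and 558 FPKM in the controls, 228 with GSK126, 173 with astemizole and 167 in the knockdown. SLC2A1, the glucose transporter GLUT1, also named after its values were seen, was at 28.1 and 32.5 FPKM in the controls and 16.5 with GSK126. WSB1, another HIF target named in this way, went the other way, at 25.6, 22.3 and 33.8 FPKM with vehicle, shRNA control and GSK126.

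Of 21 glycolytic genes none was past 2-fold against vehicle, but 4 were lower than the shRNA control (0.364% of all measured genes). Below 0 against both lay 17 of the 21 (32.9% of all measured genes). The medians were -0.44 and -0.63, and -0.22 against vehicle after rescaling to TPM. LDHA, the muscle-type lactate dehydrogenase subunit, was at 736 FPKM with vehicle, 999 in the shRNA control, 391 with GSK126, 140 with astemizole and 350 in the knockdown. PGK1, a phosphoglycerate kinase, was at 488 and 612 FPKM in the controls, 298 with GSK126, 207 with astemizole and 345 in the knockdown. The 3 treated columns were below both controls for LDHA and PGK1. ALDOC, an aldolase, was at 54.7 and 70.9 FPKM in the controls and 33.0 with GSK126 but 85.0 with astemizole. The hexokinase gene HK2 stands in both the HIF and the glycolytic list.

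The promoter of LDHA (chr11:18394313-18394612, plus strand, GRCh38.p14) is shown because HIF binds the letters ACGTG or GCGTG, in capitals here with their reverse complements.
LDHA: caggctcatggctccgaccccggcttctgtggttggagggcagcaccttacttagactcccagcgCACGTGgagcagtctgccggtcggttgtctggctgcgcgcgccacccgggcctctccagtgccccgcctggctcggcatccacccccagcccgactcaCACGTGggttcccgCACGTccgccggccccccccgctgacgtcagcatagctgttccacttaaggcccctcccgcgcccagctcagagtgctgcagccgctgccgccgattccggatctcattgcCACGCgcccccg
It held 6 matches on both strands, counting CACGTG once per strand, and the CLEAR motif TCACGTG contains these letters. Of 27 promoters of HIF targets 23 (85.2%) held a match, but so did 65.0% of the promoters of measured genes and 13 of 20 glycolytic promoters (65.0%).

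**Figure D4:**
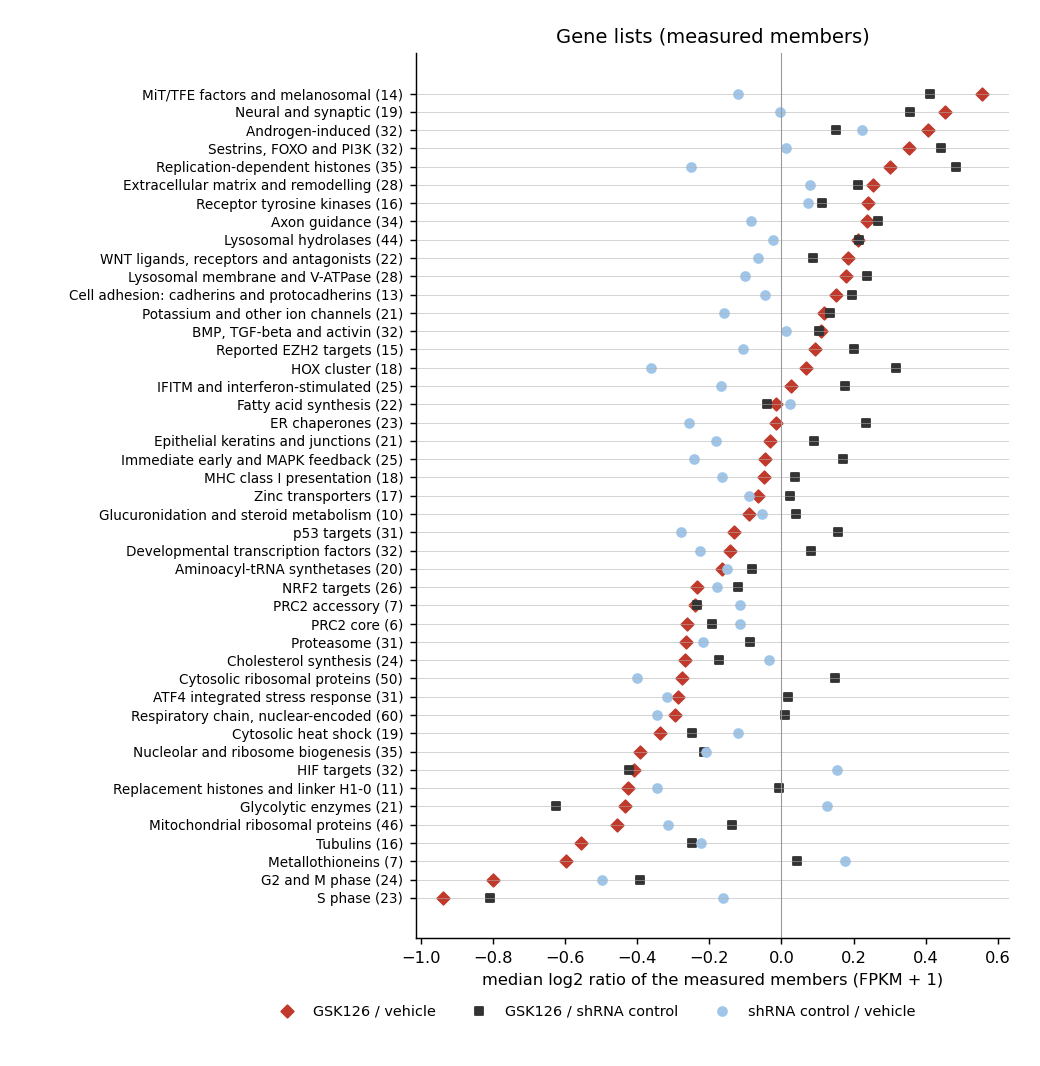
Median log2 ratio (FPKM + 1) of the measured members of each gene list, with their number in brackets, for GSK126 over vehicle, GSK126 over the shRNA control and the shRNA control over vehicle. S phase, HIF and glycolytic lists lie below 0 against both controls (-0.94 and -0.81, -0.41 and -0.42, -0.44 and -0.63), while ribosomal protein genes lie below 0 against vehicle only (-0.28 and 0.15).

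Metallothioneins, small proteins that bind zinc and copper, differed among themselves. MT2A was at 526 FPKM with vehicle, 595 in the shRNA control, 212 with GSK126, 343 with astemizole and 329 in the knockdown. GSK126 was the lowest of the 5 columns for MT2A (log2 ratios -1.31 and -1.49). MT1F was at 34.8 and 97.4 FPKM in the controls, 16.2 with GSK126, 38.9 with astemizole and 31.2 in the knockdown. MT1X, named after its values were seen, was at 211 FPKM with vehicle, 87.0 in the shRNA control and 134 with GSK126, between the controls. MT1E and MT1G went the other way against vehicle. MT1E was at 0.16 FPKM with vehicle, 1.58 with GSK126 and 0 in the shRNA control, astemizole and knockdown columns. That is the order of columns given below for ALB and AFP, and the origin of the MT1E reads was not tested. MT1G was listed at 0 FPKM with vehicle, 2.65 in the shRNA control and 3.76 with GSK126. Metallothionein genes are near-identical copies, and how reads were split among them is not stated in these sources. The 17 measured zinc transporter genes had medians of -0.07 and 0.02 with no member past 2-fold.

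The promoter of MT2A (chr16:56608334-56608633, plus strand, GRCh38.p14) is shown because its metal response elements, TGCACNC or TGCGCNC on either strand, in capitals, are bound by the zinc sensor MTF1.
MT2A: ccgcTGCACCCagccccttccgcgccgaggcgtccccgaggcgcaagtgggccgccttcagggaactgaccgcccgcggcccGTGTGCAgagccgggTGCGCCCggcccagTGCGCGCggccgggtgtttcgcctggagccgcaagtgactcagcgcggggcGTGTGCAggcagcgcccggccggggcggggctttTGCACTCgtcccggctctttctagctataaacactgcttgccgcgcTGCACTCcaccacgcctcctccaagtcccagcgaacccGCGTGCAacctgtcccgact
It held 8 matches, and 39.4% of the promoters of measured genes held at least 1. MTF1 itself was at 3.95, 4.65 and 3.85 FPKM with vehicle, shRNA control and GSK126.

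Histone genes were split. Of 61 replication-dependent histone genes 35 were measured. Of these 6 were at least 2-fold higher than vehicle and 2 lower, where 1.08% and 0.974% of all measured genes were. Against the shRNA control 4 were higher and 2 lower, where 1.56% and 0.364% of all measured genes were. The medians were 0.30 against vehicle and 0.48 against the shRNA control. Over all 61 the medians were 0 and 0.05. HIST1H4C, the most abundant of the called genes of this list, was at 58.0 and 42.4 FPKM in the controls, 18.9 with GSK126, 4.41 with astemizole and 8.39 in the knockdown. HIST2H2BE was at 17.7 and 25.1 FPKM in the controls, 36.6 with GSK126, 41.5 with astemizole and 42.1 in the knockdown, the opposite order. HIST1H2AG (3.87 and 2.68 FPKM in the controls, 10.3 with GSK126) and HIST2H2BF (3.44, 2.65 and 9.06 FPKM) were higher than both controls. Most transcripts of these genes lack a poly(A) tail, so a polyadenylated library samples the minority that has one, and near-identical copies share reads. The replacement histone genes H2AFX and H2AFZ were at 273 and 1458 FPKM with vehicle, 182 and 830 in the shRNA control and 137 and 739 with GSK126.

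Several housekeeping groups had lower medians against vehicle than against the shRNA control. Of 50 cytosolic ribosomal protein genes 49 lay below 0 against vehicle, with a median of -0.28, but the median was 0.15 against the shRNA control. The 60 nuclear-encoded respiratory chain genes had -0.30 and 0.01, the 31 proteasome genes -0.26 and -0.09 and the 46 mitochondrial ribosomal genes -0.46 and -0.14. In the same order 4, 27, 22 and 37 genes lay below 0 against both controls. None of these 4 lists had a member past 2-fold against either control. Their transcripts are short, with median lengths of 1917, 1510.5, 2586 and 1699.5 bases against 3584.5 over all genes, and centring by length gave medians of -0.10, -0.13, -0.16 and -0.28. Nucleolar and ribosome biogenesis genes, 35 in number, kept medians of -0.39 and -0.22 and 28 of them lay below 0 against both controls, led by the methyltransferase gene FBL at 322 and 233 FPKM in the controls and 191 with GSK126. The 16 tubulin genes had -0.56 and -0.25, with TUBA1B at 341, 253 and 169 FPKM with vehicle, shRNA control and GSK126. Tubulin genes are also near-identical copies.

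Among smaller lists, ATF4 targets of the integrated stress response (31 genes) had medians of -0.29 and 0.02, and ER chaperones (23 genes) had -0.02 and 0.24, so both depended on the control. The 19 cytosolic heat shock genes had -0.34 and -0.25, with the small heat shock protein gene HSPB1 at 1140 and 816 FPKM in the controls and 653 with GSK126. Cholesterol synthesis genes (24) had -0.27 and -0.17, with the isomerase gene EBP at 210 and 135 FPKM in the controls and 105 with GSK126. The 32 androgen-induced genes had 0.41 and 0.15, and their 4 members past 2-fold over vehicle were ACPP, MAF, SGK1 and ORM1, of which ORM1 also stands in the list of genes secreted by liver. SGK1, a kinase also induced by glucocorticoids, was at 3.77, 6.02 and 9.33 FPKM with vehicle, shRNA control and GSK126. Of 25 immediate early genes the nuclear receptor gene NR4A2 was the 1 past 2-fold, at 0.07, 0.15 and 1.47 FPKM.

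Genes that were near 0 in both controls and present with GSK126 were counted separately, since PRC2 acts on silent genes. In all, 54 genes stood under 0.5 FPKM in both controls and at 1 FPKM or more with GSK126, and 13 went the other way, at 1 FPKM or more in both controls and under 0.5 with GSK126. Among the latter was P2RY11, a purinergic receptor gene named after its values were seen, at 3.60 and 2.42 FPKM in the controls and 0.167 with GSK126. Another, named in the same way, was Y16709, a line with no matched symbol. It was at 14239 FPKM with vehicle, 1840 in the shRNA control, 0 with GSK126, 12508 with astemizole and 4600 in the knockdown. This line also counts in the totals used for rescaling to TPM, and the cause of its 0 was not tested. Of the 54, 12 belong to lists of other tissues, 7 were at 1 FPKM or more in the knockdown and 11 with astemizole. With a limit of 0.1 FPKM in the controls the counts were 10 and 3. Of the 54, 26 were under 0.5 FPKM with astemizole and in the knockdown too. Outside the lists, these included ASGR1, ASGR2, IGF2, TM4SF5, SERPINA5 and RPS4Y1, named after their values were seen. RPS4Y1 was at 1.18 FPKM with GSK126 and 0 in every other column. The 12 may thus leave out genes of other tissues, and whether any of the 54 were foreign RNA was not tested. ADRA2A, the alpha-2A adrenergic receptor gene, was at 0.216 and 0.195 FPKM in the controls, 4.52 with GSK126, 1.24 with astemizole and 4.32 in the knockdown. GSK126 and knockdown were alike for ADRA2A, and astemizole lay between. TSPAN8, a tetraspanin gene of gut and other epithelia, was at 0.497 and 0.195 FPKM in the controls, 4.28 with GSK126, 0.95 with astemizole and 1.01 in the knockdown. SHISA2, which encodes an inhibitor of WNT and FGF receptor maturation, was at 0.461 and 0.497 FPKM in the controls and 2.40 with GSK126, with 1.27 for astemizole and 0.50 in the knockdown. GLYATL3, a glycine acyltransferase gene, was at 0.209 and 0.0898 FPKM in the controls, 2.09 with GSK126, 0.286 with astemizole and 0.0683 in the knockdown. It is thus among the 26 genes under 0.5 FPKM with astemizole and in the knockdown too, and the origin of its reads was not tested. TET1, a DNA demethylation enzyme named after its values were seen, was at 0.377 and 0.534 FPKM in the controls, 3.72 with GSK126, 0.097 with astemizole and 0.172 in the knockdown. The shRNA control of TET1 stood just over the 0.5 limit.

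The promoters of ADRA2A and TSPAN8 are shown because the leading genes that went from near 0 to present differed in CpG content, with each CpG in capitals. ADRA2A lies at chr10:111076779-111077078 on the plus strand and TSPAN8 at chr12:71157950-71158249 on the minus strand (GRCh38.p14).
ADRA2A: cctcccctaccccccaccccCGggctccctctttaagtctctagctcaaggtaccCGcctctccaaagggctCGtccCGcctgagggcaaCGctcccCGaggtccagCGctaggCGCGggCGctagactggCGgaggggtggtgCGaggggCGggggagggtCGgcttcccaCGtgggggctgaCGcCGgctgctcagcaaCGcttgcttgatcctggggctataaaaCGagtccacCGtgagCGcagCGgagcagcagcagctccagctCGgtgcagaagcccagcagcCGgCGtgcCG
TSPAN8: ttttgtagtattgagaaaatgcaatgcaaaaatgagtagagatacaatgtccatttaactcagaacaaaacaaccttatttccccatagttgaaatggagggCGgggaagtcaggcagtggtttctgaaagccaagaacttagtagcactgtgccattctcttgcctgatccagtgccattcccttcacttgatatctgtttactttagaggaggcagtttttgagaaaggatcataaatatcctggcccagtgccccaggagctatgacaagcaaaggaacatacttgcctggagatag
ADRA2A held 26 CpG and TSPAN8 held 1. Across the 54 promoters of genes higher than both controls and outside the lists of other tissues, the median ratio of observed to expected CpG was 0.695, against 0.851 over 9600 measured genes. Over the 11 promoters of genes lower than both controls it was 0.720, close to that of the higher genes. Against vehicle alone it was 0.716 over 81 higher genes outside those lists and 0.883 over 67 lower genes. Both sets of higher genes may still hold genes of other tissues that those lists leave out. Among the leading higher genes NAALADL2 held 0 CpG, C11orf92 held 1 and ACPP and BCHE held 2 each, while PLK2 held 40 and TSC22D1 held 45.

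Long non-coding genes were past 2-fold about as often as all measured genes. Of 326 measured, 5 (1.53%) were above vehicle and 3 (0.92%) below it, against 1.08% and 0.974% overall. Besides C11orf92 and RCAN3AS the higher ones were GPC5-AS1, KDM5B-AS1 and LINC00571. GPC5-AS1 was at 45.4 FPKM with vehicle, 22.4 in the shRNA control, 97.95 with GSK126, 67.3 with astemizole and 74.0 in the knockdown. For GPC5-AS1 all 3 treated columns lay above both controls. KDM5B-AS1, now named PCAT6, was at 1.02 and 2.06 FPKM in the controls and 3.74 with GSK126. LINC00571 was listed at 0 FPKM with vehicle, 0.27 in the shRNA control and 1.34 with GSK126. The lower ones were KDM4A-AS1, at 2.84 and 2.38 FPKM in the controls and 0.711 with GSK126, CECR5-AS1, at 2.07, 1.86 and 0.522 FPKM, and the read-through gene IPO11-LRRC70, at 5.76 FPKM with vehicle and 0 in the shRNA control and with GSK126. Antisense and read-through genes may share reads with their partners, since the sources used here do not give the strand.

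The knockdown shares no library with the comparison of GSK126 and vehicle, so the calls of both can be set side by side. Against its own control, the knockdown was past 2-fold up in 231 of the 12626 measured genes (1.83%) and down in 655 (5.19%). Genes under 1 FPKM in both the GSK126 and vehicle libraries are not in these counts, whatever their level in the knockdown. Of the genes higher with GSK126 than with vehicle, 31 (22.8%) were also higher in the knockdown, which is 13.4% of those 231 genes. Of the lower genes 68 (55.3%) were also lower in the knockdown, 10.4% of those 655 genes. NAALADL2, WNT5A, ADRA2A, SESN1, SESN3 and PIK3R1 were past 2-fold in both, while PLK2, SERPINI1 and BMP6 were past 2-fold with GSK126 but not in the knockdown.

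Transcripts of liver-type genes made up a separate group among the highest ratios. Of 83 genes for proteins secreted by liver 31 were measured, and 21 of these were past 2-fold above vehicle and 0 below. All 31 stood at 1 FPKM or more with GSK126 but 14 with vehicle and 7 in the shRNA control, so most entered through the column in which they are high. Their medians of 1.34 and 1.75 carry that choice, and over all 83 genes the medians were 0.20 and 0.33. The sum over all 83 genes was 292 FPKM with GSK126, 86.4 with vehicle, 52.0 in the shRNA control, 55.3 with astemizole and 34.5 in the knockdown. APOA2, a high-density lipoprotein gene, was at 5.28 FPKM with vehicle, 60.2 with GSK126, 0 in the shRNA control, 0 with astemizole and 0.48 in the knockdown. ALB (albumin) was at 4.18, 28.7, 0.12, 0.13 and 0.12 FPKM, and the fetal gene AFP (alpha-fetoprotein) at 3.16, 27.5, 0, 0.10 and 0.08 FPKM, in the same order. GSK126 was highest, vehicle next and the other 3 columns near 0 for these 3 genes. Of the 21 called genes, 20 stood higher with vehicle than in the shRNA control and 18 were under 1 FPKM in all 3 other columns. For the 20 above 0 with vehicle the ratio of FPKM with GSK126 to vehicle ran from 4.12 to 18.4 with a median of 8.998.

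Genes that act inside hepatocytes differed less. Of 49 hepatocyte enzyme and factor genes 13 were measured, with 0 past 2-fold higher and 1 lower, and 9 of the 13 lay above 0 against both controls. The medians of the 13 were 0.21 and 0.36, and those of all 49 were 0.03 and 0.04. The sum over the 49 was 232 FPKM with GSK126, 211 with vehicle and 212 in the shRNA control. Of the 49 genes 11 were at 0 with GSK126, 19 with vehicle, 25 in the shRNA control, 26 with astemizole and 18 in the knockdown, so GSK126 had the fewest at 0. CYP3A4, ADH1B and OTC were at 0 with GSK126 and in both controls, and the hepatocyte regulator gene HNF4A was at 0.27 FPKM against 0.13 with vehicle. The 1 lower gene, HNF4G, was at 4.33 and 4.98 FPKM in the controls and 1.48 with GSK126. Of the 83 secreted-protein genes 18 were at 0 with GSK126, 29 with vehicle, 43 in the shRNA control, 38 with astemizole and 32 in the knockdown. TTR (transthyretin), named after its values were seen, had 1.36 FPKM with vehicle, 0.51 in the shRNA control and 1.91 with GSK126. Outside the liver lists and also named after their values were seen, IGFBP1, a liver-secreted binding protein gene, had 0.59 FPKM with vehicle, 4.74 with GSK126 and 0 elsewhere. The asialoglycoprotein receptor gene ASGR1 had 0.30 FPKM with vehicle, 1.75 with GSK126 and no more than 0.199 in the other columns. The lysozyme gene LYZ had 1.03 FPKM with vehicle, 7.57 with GSK126 and 0 in the shRNA control, and it was the 1 called gene of the blood cell list, whose sum over 30 genes was 13.02 FPKM with GSK126 and 6.28 with vehicle. The fibroblast, endothelial and muscle list summed to 103 and 87.5 FPKM, and the pancreas, gut, kidney and lung list to 43.0 and 37.1 FPKM, in the same order. Whether these transcripts came from the C4-2 cells or were foreign RNA in the GSK126 and vehicle libraries was not tested. Leaving out all lists of other tissues, 113 genes were past 2-fold above vehicle and 122 below it, and 73 of the 94 genes higher than both controls remained. IGFBP1 and ASGR1, which are outside those lists, are still among the 113 and the 73.

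**Figure D5:**
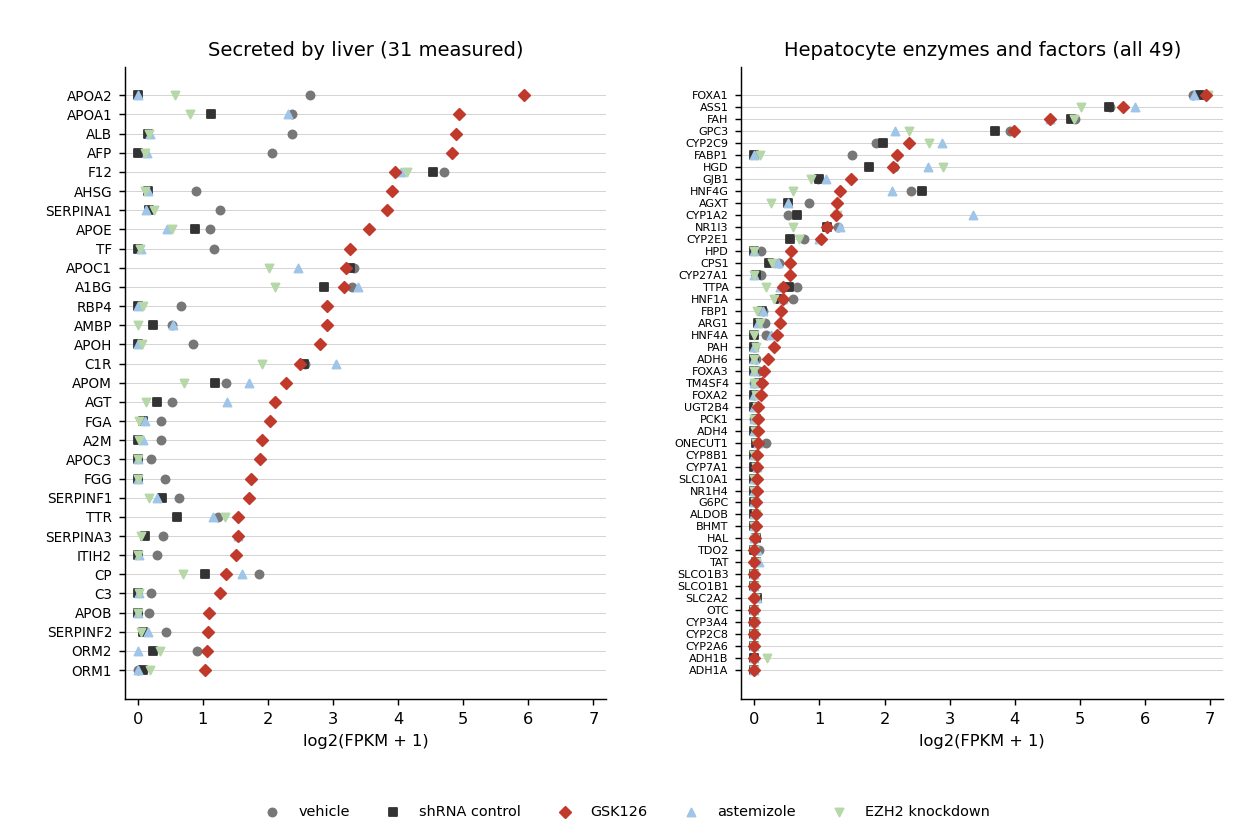
Log2 of FPKM + 1 in the 5 columns for the 31 measured genes secreted by liver (left) and all 49 hepatocyte enzyme and factor genes (right). On the left APOA2, ALB and AFP are high with GSK126 (60.2, 28.7 and 27.5 FPKM) and intermediate with vehicle, while on the right the columns lie close together for most genes.

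Some calls rested on the vehicle library. C1orf112 was at 290 FPKM with vehicle against 5.58 with GSK126 and 7.44 in the shRNA control, and TUBA1A at 9.65 against 1.60 and 0.47 FPKM. POU5F1, named after its values were seen, was at 3.95 FPKM with vehicle, 0.76 in the shRNA control and 0.35 with GSK126. S100A6 was at 1.87 FPKM with vehicle, 0.27 with GSK126 and 0 in the other 3 columns, and the non-coding gene LINC00035 at 0.75 FPKM with vehicle against 4.02 in the shRNA control and 3.86 with GSK126.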

How the data were processed

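Polyadenylated RNA of 6 libraries was measured, and the authors deposited 1 table of FPKM values with 5 columns, the unit per the labels. Reads were processed with TopHat2 and Cuffdiff on hg19, per the submitters' processing notes. The sources used here give no versions, gene annotation, normalization options or strand. Of 28503 lines, 27 whose names had become dates and 1719 short non-coding genes were left out, giving 26757, of which 12626 were measured and 11855 of those had a reference symbol. Ratios were log2 of FPKM + 1 over FPKM + 1, with a minimum of 1 FPKM in either column. Python 3.11.15, pandas 2.3.3, numpy 2.4.6 and matplotlib 3.10.9 were used. The same steps, tested on simulated data for GSK126 against vehicle, gave this result: of 12253 genes tested, 200 were changed and 200 of these were recovered. The changed genes stood at 5 FPKM or more with vehicle, and every change put in was larger than 2-fold. Recovery thus checks the calculation only, and says nothing about changes near 2-fold or at low FPKM.

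The comparison, the 49 gene lists (1701 names, 1686 in the table) and the alternatives were chosen with earlier results of these data known, so no list is independent support. The list of sestrins, FOXO and phosphoinositide 3-kinase genes, centring within 10 bins of length (GENCODE 29, longest transcript), the restriction to matched symbols and the removal of other-tissue lists were added after values were seen. Named were EZH2, EZH1, EED and SUZ12, the 20 highest and 20 lowest genes against both controls among those at 5 FPKM or more, of each list the members past 2-fold or else up to 4 with the largest ratios, the 10 highest genes near 0 in both controls, and 10 genes that differed most between the controls. Exceptions are marked as named after their values were seen. Some genes that these rules name are not reported here. Promoter sequences (250 bases before and 50 after the start) are from RefSeq on GRCh38.p14, not the hg19 of the files, and 9600 of 11832 measured symbols had one. Motifs were matched on both strands, and overlapping matches were counted separately.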

Additional observations from a re-analysis of the deposited data

How the results depend on the processing

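With a pseudocount of 0.1 FPKM, 335 genes were past 2-fold above vehicle and 226 below it, and without a filter as well 979 and 519. At 5 FPKM or more 79 were higher. After rescaling to TPM 281 were higher and 71 lower, at 1.5-fold 632 and 826. With the shRNA control 46 were lower, and after centring by length 39. A limit of 0.1 FPKM gave 10 genes near 0 in both controls and present with GSK126, and 3 the other way. Of 207 named genes, 149 kept their sign and side of 2-fold with the shRNA control, 34 lost and 9 gained the call with the same sign, 1 had a ratio of 0, 9 that were not past 2-fold changed sign, and so did 5 that were: ID1 at 0.0716, HIST4H4 at -0.0584, TUBA1A at 0.82, S100A6 at 0.34 and LINC00035 at -0.0451. The differences between the controls were not traced to a cause. Rescaling to TPM took 20 named genes below 2-fold and centring by length 20 of 204. With no filter the median was 0.01 for neural genes and 0 for replication-dependent histones. Among other medians of lists, that of the genes secreted by liver was 2.67 with a pseudocount of 0.1 FPKM, 0.20 without a filter, 0.67 with both and 2.42 at 5 FPKM or more. The metallothionein median was 0 without a filter and 0.04 with the shRNA control, and the blood cell median 0 without a filter and 2.08 at 5 FPKM or more. No paired analysis was possible because each condition has 1 library. FPKM holds no read totals, which leaves counting error unknown, and a listed 0 can also mean that estimation failed.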

Other observations

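Some called genes lay next to each other. Among 11757 measured genes in genome order, 7 adjacent pairs were both higher than vehicle and 3 pairs both lower. For scale, 1.08% of all measured genes were higher and 0.974% lower, and no expected number of pairs was computed. Outside the lists of other tissues the higher pairs were SLC45A2 with AMACR (log2 ratios 1.41 and 1.47), PLA2G2A with CAMK2N1 (1.36 and 1.18) and IGF2 with the overlapping read-through gene INS-IGF2 (1.16 and 1.27). IGF2 was at 0.217 FPKM with vehicle, 1.71 with GSK126 and no more than 0.011 in the other columns. This is the order seen for the liver-type genes, and the origin of its reads was not tested. FAM198B, at 1.47, had neighbours just under the limit, TMEM144 at 0.97 and the lysosomal protease gene CTSO at 0.93. The neighbours of C11orf92, FDX1 at -0.17 and LOH11CR1I at 0.28, and those of NAALADL2, NLGN1 at 0.42 and TBL1XR1 at 0.19, were below 2-fold. The neighbours were named after their values were seen.

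Of the 771 measured lines with no matched symbol, 12 were higher and 34 lower than vehicle, and 17 of these called lines were at 0 in a column.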
